A study of Mus musculus with 8 samples.

Results

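The mouse mitochondrial genome encodes 37 genes, and all 37 were found among the 39179 gene IDs listed in each library by taking every gene whose symbol starts with mt-. They comprised 2 ribosomal RNA genes, 22 transfer RNA genes and 13 protein genes, and no expression value was used to choose them. RNA sequencing libraries came from C57BL/6 mouse bone marrow common lymphoid progenitors (CLPs), cells that give rise to B, T and natural killer cells, in 2 groups of 4. The ex vivo CLP group was sorted directly after isolation. The cCLP group was sorted after 2 months of culture on OP9, a mouse stromal cell line, in medium with Flt3L and a low dose of IL-7. Both groups were sorted for the surface phenotype Lin-Flk2+IL7R+CD27+Ly6d-, and the labels name no genetic change. The labels named no animal, culture or batch, so each p-value below measures only the spread between these libraries, which may be technical.

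Mitochondria carry their own circular DNA. Its heavy and light strands are each transcribed as long RNAs that contain rRNA, tRNA and messenger RNA end to end. Excision of the tRNAs releases most of the other RNAs, a scheme known as tRNA punctuation, and the released RNAs then differ in stability. The protein genes encode core subunits of respiratory complexes I, III and IV and of the ATP synthase (complex V), and the rRNAs form the core of the mitochondrial ribosome that translates them. All other respiratory chain subunits, and every protein that copies, transcribes, processes and translates mitochondrial DNA, come from nuclear genes.

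The deposited values were whole numbers that varied less between similar libraries than read counts can, so they were treated as scores of unknown depth. They were divided by a factor for each library to give scaled values. A score was not known to be per unit of gene length, so values are compared between libraries and not between genes. Summed scores ranged from 378594 to 704305 per library. By their whole profiles, ex vivo CLP 2 and cCLP 1 lay with the other group: across 8071 genes, Spearman's rho of ex vivo CLP 2 was 0.965 to 0.986 against cCLP 2, 3 and 4, but only 0.76 to 0.83 within its own group. For cCLP 1, rho was 0.949 to 0.977 against ex vivo CLP 1, 3 and 4 and 0.81 to 0.82 within its own group. Each comparison is therefore given over the 8 libraries as labelled and over the 6 that remain without these. No library was moved. Of the genes behind the sort, Ly6d, selected against, had scaled values of 29.4 to 35.6 in ex vivo CLP 1, 3 and 4, with 20.9 for cCLP 1, and of 0 to 1.06 in the other 4 libraries. Of those selected for, Il7r had 17.2 to 73.7 in those same first 4 libraries and 195 to 226 in the others. Flt3, which encodes Flk2, had 207 to 256 in the first 4 and 268 to 279 in the others, and Cd27 had 76.2 to 103 and 62.8 to 83.2.

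The coding sequences are packed with hardly any space between them, and some overlap, which bears on how reads can be assigned. The following stretches are from the GENCODE vM21 transcripts (GRCm38), 5′ to 3′, with the bases shared by neighbouring genes in capitals. The mt-Nd4l gene (chrM:9877-10173, + strand) is shown whole because it was the protein gene listed at 0 throughout, beside the start of mt-Nd4 (chrM:10167-10226, + strand), whose first 7 bases it shares.
mt-Nd4l: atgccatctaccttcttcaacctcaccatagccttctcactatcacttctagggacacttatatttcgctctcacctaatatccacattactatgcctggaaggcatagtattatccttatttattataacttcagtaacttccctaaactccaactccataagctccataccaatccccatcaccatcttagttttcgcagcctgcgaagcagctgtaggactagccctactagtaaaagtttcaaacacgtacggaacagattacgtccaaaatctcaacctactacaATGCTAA
mt-Nd4 start: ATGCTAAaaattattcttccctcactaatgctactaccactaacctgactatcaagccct
The end of mt-Atp8 (chrM:7910-7969) and the start of mt-Atp6 (chrM:7927-7986), both on the + strand, share 43 bases read in different frames.
mt-Atp8 end: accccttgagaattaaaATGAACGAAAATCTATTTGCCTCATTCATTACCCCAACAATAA
mt-Atp6 start: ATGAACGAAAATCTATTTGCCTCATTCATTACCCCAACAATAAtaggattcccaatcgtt
The ends of mt-Nd5 (chrM:13506-13565, + strand) and of mt-Nd6 (chrM:13552-13611, − strand) run into each other from opposite strands over 14 bases.
mt-Nd5 end: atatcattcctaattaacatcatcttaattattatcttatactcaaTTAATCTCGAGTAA
mt-Nd6 end: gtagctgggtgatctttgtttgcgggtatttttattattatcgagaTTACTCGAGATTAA
The mt-Tm gene for methionine tRNA (chrM:3845-3913, + strand) is shown because it was the tRNA gene with the highest listed value.
mt-Tm: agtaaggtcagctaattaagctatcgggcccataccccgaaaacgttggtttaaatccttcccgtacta

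Near-identical copies of mitochondrial DNA also lie in nuclear chromosomes. Of all 75-base windows, the length of 1 read, the share found unchanged in an annotated pseudogene of chromosome 1 was 99.9% for mt-Co3 (in Gm28437), 99.5% for mt-Co2 (Gm28661) and mt-Atp6 (Gm10925), 98.7% for mt-Nd4l (Gm10222), 97.8% for mt-Nd3 (Gm28438) and 61.5% for mt-Nd4 (Gm28439). For mt-Co1 it was 27.5% in Gm29216 of the same chromosome, and 15.0% in Gm13340 of chromosome 2. No window of mt-Nd1, mt-Atp8, mt-Nd6, mt-Cytb, mt-Rnr1 or mt-Rnr2 had such a match. Only annotated transcripts were searched, so copies elsewhere in the nuclear genome could not be found. The mt-Atp8 gene starts between mt-Co2 and mt-Atp6, whose copies lie close together (chr1:24614885-24615565 and chr1:24613974-24614651). The stretch between those copies was searched only where a transcript is annotated, so a copy of mt-Atp8 there is not excluded. Of the copies with over 50% of windows shared, Gm10222 was the one whose ID was listed in the files, and it is identical to mt-Nd4l over all 294 bases of its transcript. Both mt-Nd4l and Gm10222 were listed at 0 in all 8 libraries. Copies with a smaller shared part had low values: Gm13340 was listed at 0 or 1 and Gm13341, which holds 22.6% of mt-Co2's windows, at 0 to 2. How reads that match several places were assigned is not given in the sources used here, so values of genes with close copies are uncertain.

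Of the 37 genes, 14 passed the filter for testing (a scaled value of at least 10 in at least the number of libraries of the smaller group), in both comparisons. They were both rRNA genes and every protein gene except mt-Nd4l. Of their values, only that of mt-Nd6 in ex vivo CLP 1 was below 10, so none passed through 1 group alone. All 22 tRNA genes stayed below the filter, and 16 were listed at 0 in every library. The listed values of mt-Tm were 6 for ex vivo CLP 3, 6 for cCLP 2, 4 for cCLP 3 and 0 in the other 5 libraries. The glutamine tRNA gene mt-Tq had a listed value of 1 in cCLP 2 and cCLP 3, and mt-Tv, mt-Tl1, mt-Ts1 and mt-Th each at 1 in a single library. The tRNA genes are 59 to 75 bases long, no longer than 1 read of 75 bases, so these values say little about tRNA levels.

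The 12S rRNA gene mt-Rnr1 (chrM:70-1024) had scaled values of 207, 344, 236 and 255 in ex vivo CLP 1 to 4 and 285, 392, 289 and 278 in cCLP 1 to 4. The groups overlapped, with ex vivo CLP 2 above 3 of the cCLP libraries. The 16S rRNA gene mt-Rnr2 (chrM:1094-2675) had values of 1276, 2536, 1813 and 1648 for ex vivo CLP 1 to 4, against 1684, 2570.4, 1981 and 2326 for cCLP 1 to 4. Here too ex vivo CLP 2 stood beside the highest cCLP library and cCLP 1 among the ex vivo CLP libraries. The libraries were depleted of rRNA, and the labels do not say how far mitochondrial rRNA was removed. The ratio of mt-Rnr2 to mt-Rnr1 averaged 6.92 ± 0.718 (SD, n = 4) for ex vivo CLPs and 6.93 ± 1.05 for cCLPs, with a two-sided exact permutation p of 1.0.

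Complex I, the NADH dehydrogenase, takes 7 of its core subunits from mitochondrial DNA. The first gene after the rRNAs, mt-Nd1 (chrM:2751-3707), had scaled values of 1623, 3383, 2917 and 2673 in ex vivo CLP 1 to 4 and 1854, 3190.2, 3608 and 4167 in cCLP 1 to 4. The lowest values were those of ex vivo CLP 1 and cCLP 1. The next, mt-Nd2 (chrM:3914-4951), had 233, 417, 491 and 487 in ex vivo CLP 1 to 4 and 252, 498, 507 and 653 in cCLP 1 to 4, with the same pair of libraries lowest.
Small subunit gene mt-Nd3 (chrM:9459-9806) ranged from 1113 to 2058 in ex vivo CLPs and from 1111 to 2075 in cCLPs. For mt-Nd4 (chrM:10167-11544), ex vivo CLP 1 to 4 had 149, 153, 179 and 289.9 and cCLP 1 to 4 had 199.5, 286, 280.0 and 238. Ex vivo CLP 2 was nearly level with ex vivo CLP 1 here, and the groups overlapped.
The mt-Nd5 gene (chrM:11742-13565) ranged from 128 to 262 in ex vivo CLPs and from 153 to 273 in cCLPs. The only protein gene on the − strand, mt-Nd6 (chrM:13552-14070), had scaled values of 6.04, 14.6, 21.6 and 20.1 in ex vivo CLP 1 to 4 and 10.4, 19.1, 20.1 and 15.1 in cCLP 1 to 4. The strand setting of the counting is not given in the sources used here, so reads from mt-Nd6 and from RNA of the opposite strand cannot be told apart.

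Cytochrome b, encoded by mt-Cytb (chrM:14145-15288), is the mitochondrially encoded subunit of complex III. It varied least among the tested members, with 1059, 1302, 1336 and 1560.0 in ex vivo CLP 1 to 4 and 1206, 1412, 1488 and 1517 in cCLP 1 to 4, a highest value 1.47 times the lowest. For mt-Nd6, at the other extreme, that ratio was 3.57.

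The catalytic core of complex IV, cytochrome c oxidase, is made from mt-Co1 (chrM:5328-6872), mt-Co2 (chrM:7013-7696) and mt-Co3 (chrM:8607-9390). The mt-Co1 values were 9515, 15243, 12750.1 and 10592 in ex vivo CLP 1 to 4 and 10221, 11977, 14041 and 15692 in cCLP 1 to 4. The groups covered nearly the same range. For mt-Co2 the range was 5317 to 8301 in ex vivo CLPs and 5732 to 9499 in cCLPs. For mt-Co3 it was 10198 to 15762 in ex vivo CLPs and 9465 to 15542 in cCLPs. Of the ATP synthase subunit genes, mt-Atp8 (chrM:7766-7969) ranged from 1197 to 2818 in ex vivo CLPs and from 1499 to 2623 in cCLPs, and mt-Atp6 (chrM:7927-8607) from 2693 to 5072 and from 3179 to 5042.

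**Figure D1:**
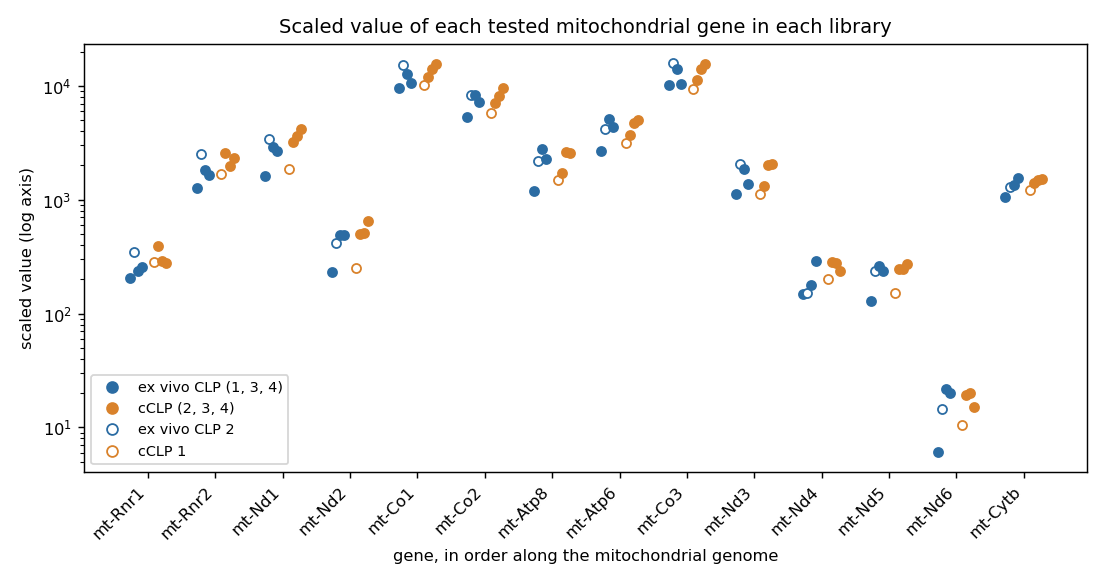
Scaled value (log axis) of the 14 tested mitochondrial genes in each library, in genome order. Blue points are ex vivo CLP, orange points cCLP, from replicate 1 on the left to 4 on the right within each group, and open points are ex vivo CLP 2 and cCLP 1. The groups overlapped for every gene, and ex vivo CLP 1 was the lowest library for 12 of them.

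Single libraries were low or high for nearly all members at once. Ex vivo CLP 1 was below the gene's mean over the 8 libraries for 14 of 14 tested genes, with a median distance of -0.56 on the log2 scale, and was the lowest library for 12 of them. Over all tested genes it was the lowest library for 13.1%, and its median distance was -0.023. The library labelled cCLP 1 was below the gene mean for 13 of 14 members (median -0.37), the exception being mt-Rnr1, and was the lowest for mt-Co3 and mt-Nd3. At the other end, cCLP 3 was above the gene mean for all 14 members (median 0.21) and cCLP 4 for 13 (median 0.33), and cCLP 4 was the highest library for 6. Ex vivo CLP 2, 3 and 4 and cCLP 2 had medians from 0.046 to 0.18 with members on both sides. The SD of log2 values within the labelled groups had a median of 0.36 over the 14 members, against 0.20 over the 663 other genes with a mean scaled value of at least 100. Without ex vivo CLP 1 these medians were 0.31 and 0.20. The 14 genes are cut from shared transcripts and are not independent of each other.

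**Figure D2:**
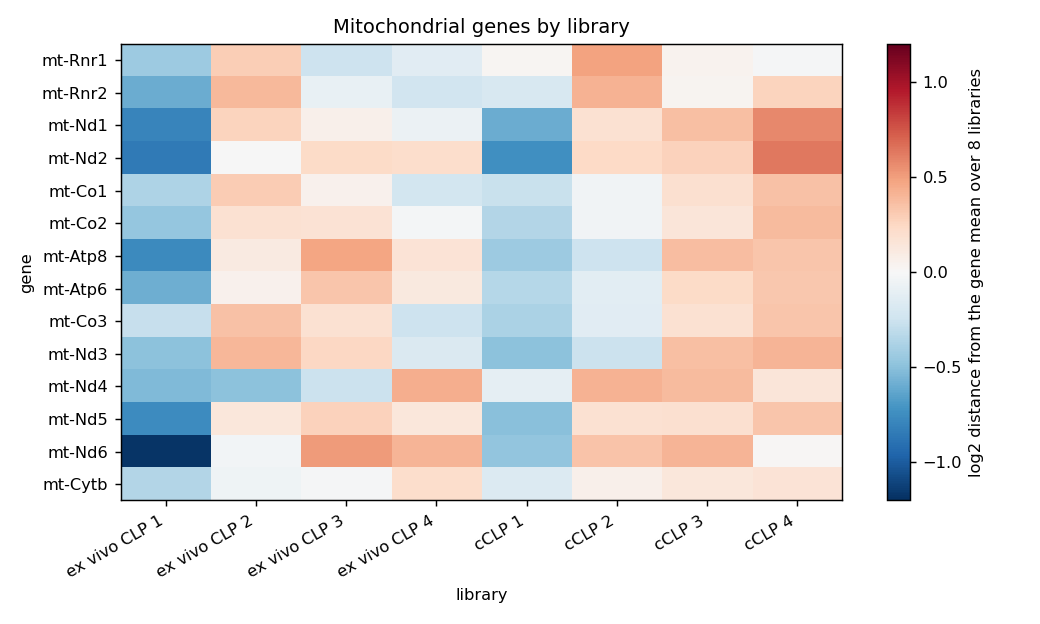
Log2 distance of each tested gene in each library from that gene's mean over the 8 libraries (blue below, red above). The columns of ex vivo CLP 1 (14 of 14 genes below) and cCLP 1 (13 of 14 below) are blue, and those of cCLP 3 and cCLP 4 mostly red.

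Over the 8 libraries as labelled, no mitochondrial gene passed the test between cCLPs and ex vivo CLPs. With limma, 0 of 14 had an adjusted p below 0.05 and 0 of 14 an unadjusted p below 0.05, where the share of all 6580 genes tested was 0.0% and 7.75%. Log2 fold changes (cCLP minus ex vivo CLP) were above 0 for 13 members, with a median of 0.11 against -0.011 over all genes. The highest was 0.42 ± 0.23 (SE, n = 4) for mt-Nd4, with a 95% confidence interval of -0.096 to 0.94 and adjusted p = 0.482. For mt-Nd1 it was 0.26 ± 0.30 (adjusted p = 0.627), for mt-Rnr1 0.26 ± 0.18 (0.484), for mt-Rnr2 0.26 ± 0.22 (0.531) and for mt-Nd2 0.21 ± 0.34 (0.731).
The other members lay between -0.0044 (mt-Co3) and 0.14 (mt-Nd6). The log2 fold change was 0.12 ± 0.19 for mt-Co1, 0.06 ± 0.20 for mt-Co2, -0.0044 ± 0.20 for mt-Co3, 0.01 ± 0.29 for mt-Atp8 and 0.04 ± 0.22 for mt-Atp6. It was 0.0092 ± 0.27 for mt-Nd3, 0.10 ± 0.26 for mt-Nd5 and 0.14 ± 0.38 for mt-Nd6. For mt-Cytb, the most precise, it was 0.10 ± 0.14 with an interval of -0.21 to 0.42. The interval lay inside 2-fold in either direction for 13 of 14 members, the exception being mt-Nd6 (-0.72 to 1.01), and for 81.3% of all genes. The groups overlapped for 14 of 14 members. Every cCLP library was above every ex vivo CLP library for 1.75% of all genes and below for 1.7%. Single libraries weighed on the direction. Without ex vivo CLP 1, 6 members were above 0 and 8 below, with a median of -0.061. Without cCLP 4 they were 9 and 5 (median 0.029), and without cCLP 3 they were 10 and 4 (0.065). All 14 were above 0 without cCLP 1, cCLP 2, ex vivo CLP 2 or ex vivo CLP 3, and 12 without ex vivo CLP 4.

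Over ex vivo CLP 1, 3 and 4 against cCLP 2, 3 and 4, the direction was shared and 1 gene passed. These libraries were chosen from their whole profiles after the data had been seen, so the p-values hold only given that choice. All 14 members had log2 fold changes above 0, from 0.18 for mt-Cytb to 0.64 for mt-Nd1, with a median of 0.34 against -0.0013 over all genes, of which 49.9% were above 0. With limma, 1 of 14 was higher at an adjusted p below 0.05 and 0 were lower, where 20.7% of the 6622 genes tested were higher and 22.4% lower. At an unadjusted p below 0.05 the numbers were 3 of 14 members and 50.7% of genes.
The gene that passed was mt-Rnr2, an rRNA gene in libraries depleted of rRNA to an unstated extent. Its mean was 1596 ± 278 (SD, n = 3) for ex vivo CLPs and 2317 ± 299 for cCLPs, and the log2 fold change was 0.54 ± 0.18 (SE), interval 0.13 to 0.96 and adjusted p = 0.0416. Leaving out 1 library ended the call in 5 of 6 cases. The adjusted p was then 0.0762 (ex vivo CLP 1 left out), 0.0844 (ex vivo CLP 4), 0.125 (cCLP 2), 0.0551 (cCLP 3) and 0.122 (cCLP 4). For mt-Nd1 the means were 2430.1 ± 695 and 3694 ± 495 (log2 fold change 0.64 ± 0.24, adjusted p = 0.0646), and for mt-Rnr1 235 ± 24.8 and 323 ± 64.0 (0.44 ± 0.16, adjusted p = 0.0563).
For mt-Nd2 the log2 fold change was 0.52 ± 0.29, for mt-Nd4 0.43 ± 0.23, for mt-Nd5 0.35 ± 0.25, for mt-Co1 0.35 ± 0.20, for mt-Nd6 0.34 ± 0.42, for mt-Nd3 0.31 ± 0.25, for mt-Co2 0.26 ± 0.22 and for mt-Co3 0.24 ± 0.21. For mt-Atp8 and mt-Atp6 it was 0.19 ± 0.33 and 0.19 ± 0.26. Among these 10 the adjusted p ranged from 0.170 to 0.665. The groups did not overlap for 4 of 14 members, mt-Rnr1, mt-Rnr2, mt-Nd1 and mt-Nd2, all higher in cCLPs. Among all genes, 27.6% did not overlap and were higher and 28.3% were lower, so this count is near the background. Without ex vivo CLP 1 the median fell to 0.14, 11 members were above 0 and none passed.

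**Figure D3:**
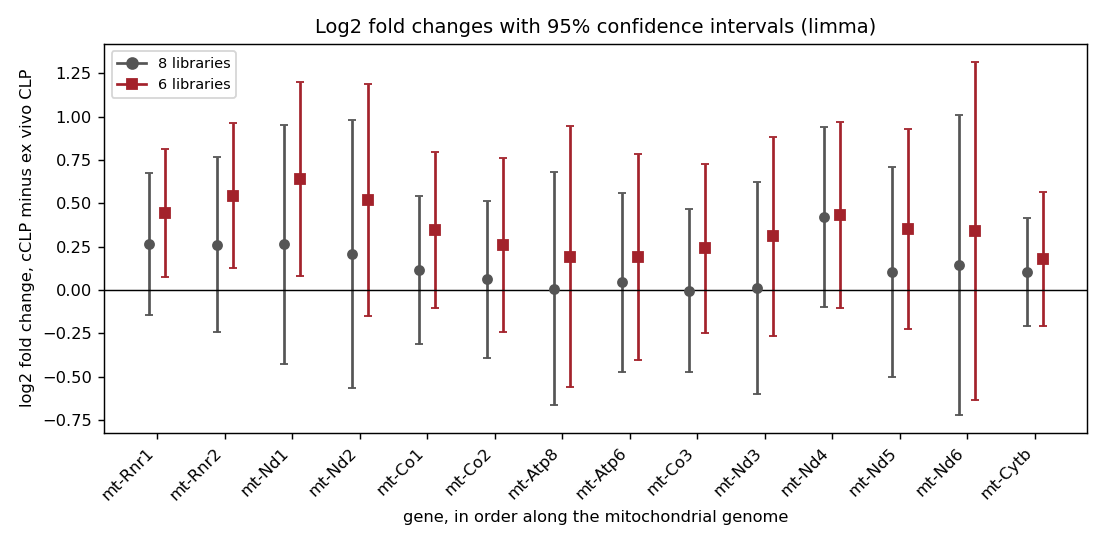
Log2 fold change (cCLP minus ex vivo CLP) of each tested mitochondrial gene with its 95% confidence interval from limma, over 8 libraries (grey circles) and 6 libraries (red squares). Every 8-library interval includes 0. The 6-library intervals of mt-Rnr1, mt-Rnr2 and mt-Nd1 do not.

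Shares within a library need no scaling between libraries. The 13 protein genes took 7.26%, 10.5%, 8.95% and 8.20% of the summed scores in ex vivo CLP 1 to 4 and 7.26%, 9.23%, 10.2% and 11.3% in cCLP 1 to 4. The means were 8.72% ± 1.36 (SD, n = 4) and 9.51% ± 1.72, a difference of 0.783 percentage points with an exact two-sided permutation p of 0.457 (adjusted over 12 measures, 0.784). Designs of 4 against 4 allow no p below 0.0286. Among the 6 libraries, the range was 7.26% to 8.95% in ex vivo CLPs and 9.23% to 11.3% in cCLPs (exact permutation p = 0.1, the smallest that 3 against 3 allow).
The 2 rRNA genes took 0.324%, 0.568%, 0.367% and 0.377% in ex vivo CLP 1 to 4 and 0.410%, 0.642%, 0.451% and 0.513% in cCLP 1 to 4. The 4 highest shares were those of cCLP 2, ex vivo CLP 2, cCLP 4 and cCLP 3, in that order. The difference of 0.0952 percentage points had an exact permutation p of 0.257. The log2 ratio of rRNA to protein gene scores averaged -4.44 ± 0.167 for ex vivo CLPs and -4.24 ± 0.307 for cCLPs, with an exact permutation p of 0.286. The highest ratio was that of cCLP 2, at -3.85. Among the 6 libraries the ratio averaged -4.51 ± 0.0837 (SD) for ex vivo CLPs and -4.27 ± 0.368 for cCLPs. The groups overlapped, and the exact permutation p was 0.5. Where the bulk RNA of a group holds less of a transcript, fewer cells of a type and less RNA per cell cannot be told apart.

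**Figure D4:**
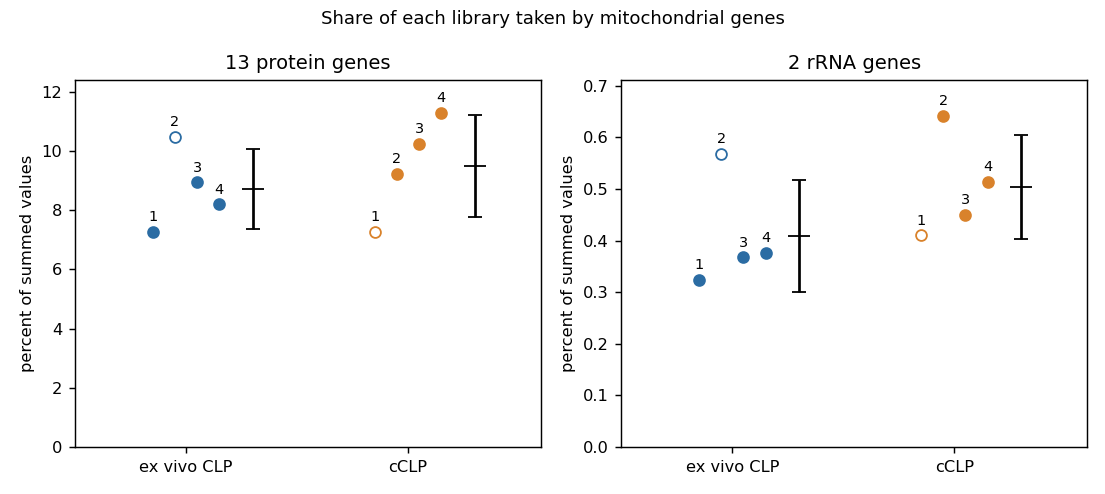
Percent of each library's summed scores taken by the 13 mitochondrial protein genes (left) and the 2 rRNA genes (right). Numbers are replicates, open points are ex vivo CLP 2 and cCLP 1, and black bars are the mean ± SD of 4 libraries. Ex vivo CLP 2 lies high in its group in both panels and cCLP 1 low.

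No difference in the makeup of the mitochondrial messenger pool passed the test. For ex vivo CLPs and cCLPs in turn, complex IV genes took 71.8% ± 3.40 (SD, n = 4) and 71.2% ± 1.22 of the protein gene sum, complex V genes 13.9% ± 2.36 and 13.4% ± 0.658, complex I genes 11.3% ± 1.1 and 12.3% ± 1.35, and mt-Cytb 3.02% ± 0.586 and 3.08% ± 0.374. The exact permutation p was 0.8, 0.657, 0.343 and 0.886. By gene, 0 of the 12 with a value had an exact permutation p below 0.05 before adjustment, and the adjusted p was 0.943 for each. The smallest raw p was 0.171 for mt-Nd1, whose share was 4.88%, 6.35%, 5.84% and 6.45% in ex vivo CLP 1 to 4 and 5.32%, 7.49%, 6.99% and 7.28% in cCLP 1 to 4. In the 6 libraries the complex I share was 11.2% ± 1.27 (n = 3) for ex vivo CLPs and 12.97% ± 0.0473 for cCLPs, without overlap (exact permutation p = 0.1, the smallest possible). Ex vivo CLP libraries were spread more widely than cCLP libraries in the shares of mt-Co3 (25.0% to 30.7% against 26.3% to 27.1%) and mt-Atp6 (7.85% to 10.5% against 8.68% to 9.19%), and this difference in spread was not tested.

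Nuclear genes that maintain and express mitochondrial DNA were taken from 8 lists by role. Of 106 names, 105 were in the files; Prorp, the missing one, was listed under its older symbol 1110008L16Rik. Over the 8 libraries 60 were tested and 0 were called by limma (2 at an unadjusted p below 0.05, Twnk and Mrpl12), with a median log2 fold change of -0.013. Over the 6 libraries 59 were tested, with a median of -0.0023. Of these, Twnk, Dna2, Tefm and Mterf2 passed the filter only through the group where they were higher, so they had to differ, and they are described without a test and left out of the counts. Of the other 55, 5 rose and 5 fell. Among all genes that likewise reached 10 in at least 1 library of each group, 18.3% rose and 18.7% fell. As for the mitochondrial genes, these 6-library calls hold only given the choice of libraries.

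In the transcription list, 2 members could be tested over the 6 libraries without such a choice by the filter, Tfam and Mrpl12, and neither was called by limma (0 at an unadjusted p below 0.05). Tefm, the elongation factor of the mitochondrial RNA polymerase, had scaled values of 9.67, 23.6, 7.62 and 5.74 in ex vivo CLP 1 to 4 and 8.55, 15.9, 17.2 and 19.3 in cCLP 1 to 4. Here too ex vivo CLP 2 and cCLP 1 were on the side of the other group. Over the 8 libraries its log2 fold change was 0.49 ± 0.41 (SE, n = 4; adjusted p = 0.528). Mterf2, of the mitochondrial termination factor family, had means of 5.77 ± 2.52 (SD, n = 3) and 17.1 ± 0.689 over the 6 libraries. Tfam, which packages and bends mitochondrial DNA and starts transcription, was at 22.4 ± 2.51 and 23.7 ± 2.01 (0.08 ± 0.12, adjusted p = 0.602). The polymerase gene Polrmt and the initiation factor gene Tfb2m did not pass the filter, with 7.76 ± 0.836 (n = 4) and 9.73 ± 1.01 for Polrmt and 7.65 ± 0.295 and 8.99 ± 0.628 for Tfb2m over the 8 libraries.

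In the replication and upkeep list, 1 of 5 rose and 2 fell over the 6 libraries. Polg, the catalytic subunit of the mitochondrial DNA polymerase, rose from 11.4 ± 0.338 to 17.5 ± 0.958 (log2 fold change 0.58 ± 0.10 SE, adjusted p = 0.00208). Over the 8 libraries as labelled the groups overlapped for Polg (0.28 ± 0.20, adjusted p = 0.489 by limma). Those that fell, Tk2 and Dguok, encode the mitochondrial deoxynucleoside kinases (-0.43 and -0.50). Left untested for the reason above, Twnk, the replicative helicase, had means of 8.54 ± 1.85 and 12.8 ± 0.838, and Dna2, a nuclease and helicase, of 11.4 ± 0.996 and 7.66 ± 0.917.

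Processing and stability genes held the largest fall. Rexo2, an oligoribonuclease that clears short RNAs in mitochondria, had scaled values of 66.5, 37.03, 90.2 and 83.2 in ex vivo CLP 1 to 4 and 75.05, 32.95, 35.4 and 36.9 in cCLP 1 to 4. Over the 6 libraries it fell by 1.16 ± 0.13 on the log2 scale (adjusted p = 0.000248), as the 1 called member of 7 in the mRNA stability list. Lrpprc and Slirp, whose products bind and stabilise mitochondrial messengers, were at 18.0 ± 2.41 and 21.2 ± 0.809 (0.23 ± 0.12, adjusted p = 0.145) and at 14.8 ± 2.73 and 13.9 ± 1.80 (-0.08 ± 0.15, adjusted p = 0.681). In the processing list 2 of 11 rose, Hsd17b10 (0.39 ± 0.11, adjusted p = 0.0234) and 1110008L16Rik (0.37), which both encode subunits of the mitochondrial RNase P that cuts the 5′ ends of tRNAs. For 1110008L16Rik, 1 of the 3 ex vivo CLP libraries was above 10. Elac2, which cuts the 3′ ends, was at 20.8 ± 1.16 and 17.1 ± 1.38 (-0.27 ± 0.10, adjusted p = 0.0591).

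Among genes for modification of mitochondrial rRNA and tRNA, 1 of 7 rose and 1 fell over the 6 libraries. They were Cdk5rap1, a tRNA-modifying enzyme gene (0.52 ± 0.16, adjusted p = 0.0284), and Tfb1m, the gene of a 12S rRNA methyltransferase (-0.37 ± 0.12, adjusted p = 0.0389). In the insertion and assembly list, 1 of 11 rose and 1 fell: Ndufaf1 (0.68 ± 0.14, adjusted p = 0.0055) and Ecsit (-0.49 ± 0.11, adjusted p = 0.0089), which both encode complex I assembly factors. None of 6 tested translation factor genes and none of 6 tested biogenesis regulators was called by limma over the 6 libraries (0 and 1 at an unadjusted p below 0.05). Ppargc1a, a coactivator of mitochondrial biogenesis, was listed at 0 in all 8 libraries.

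**Figure D5:**
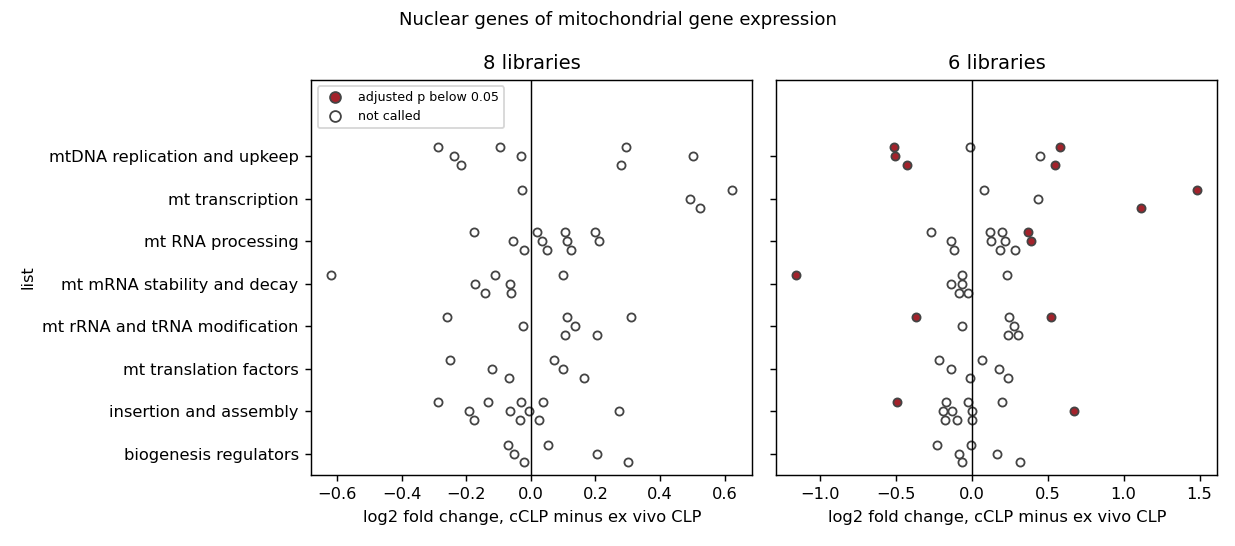
Log2 fold change (cCLP minus ex vivo CLP) of each tested nuclear gene, by list, over 8 libraries (left) and 6 libraries (right); vertical scatter within a list only separates points, and the panels have different x ranges. Filled points passed limma at an adjusted p below 0.05, 0 on the left and 14 on the right, of which 4 (Twnk, Dna2, Tefm and Mterf2) passed the filter through 1 group only.

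Markers of other cells moved with the 6-library groups. The summed scaled value of 8 myeloid genes was 1274, 169, 3083 and 2821 in ex vivo CLP 1 to 4 and 1629, 268, 282 and 293 in cCLP 1 to 4, with Elane, Ctsg, S100a8, S100a9 and Csf1r all at 0 for ex vivo CLP 2 and for cCLP 2, 3 and 4. Mpo made up most of the sum there, with 162 in ex vivo CLP 2 and 260.4 to 284 for cCLP 2 to 4. Ex vivo CLP 1 and cCLP 1 were below the gene mean for nearly all tested mitochondrial genes. Their myeloid sums lay below those of ex vivo CLP 3 and 4 and above those of ex vivo CLP 2 and cCLP 2, 3 and 4. On either side, the median log2 distance of the mitochondrial genes ranged from 0.046 in ex vivo CLP 4 to 0.33 in cCLP 4. In ex vivo CLP 4, 7 members were below the gene mean and 7 above. How the myeloid sums relate to the mitochondrial values was not tested. The sum of 7 erythroid genes ranged from 10.9 to 54.6 in ex vivo CLP 1, 3 and 4, against 4.19 to 7.65 for cCLP 2 to 4. Its values were low, and Hbb-bt, the largest member for cCLP 2 to 4, went both ways. Hbb-bt had 4.19 to 6.69 there, 2.42 in ex vivo CLP 1 and 12.2 to 17.8 in ex vivo CLP 3 and 4. The sum of 5 B lineage genes was 32.3 to 41.1 in ex vivo CLP 1, 3 and 4, against 15.3 to 26.0 for cCLP 2 to 4, and its members went both ways: Cd79b had 30.9 to 38.7 and 1.06 to 3.35, and Cd79a 0.718 to 1.27 and 6.69 to 13.4. All 8 stromal genes, such as Col1a1, Sparc and Cxcl12, were listed at 0 in every library. The nuclear RNAs Malat1 and Neat1 summed to 83.8 to 102 in ex vivo CLP 1, 3 and 4 and to 53.5 to 94.6 for cCLP 2 to 4. The part of these cells or of nuclear RNA in the mitochondrial values was not tested.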

How the data were processed

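RNA from sorted cells (100 ng in total) was made into stranded, rRNA-depleted libraries and sequenced in paired reads of 75 nt, per the labels' protocols. TopHat2, Bowtie2 and HTSeq 1.0.6 with GRCm38 (mm10) are named in the submitters' processing notes, without roles. The value deposited for each Ensembl gene ID is a score, a whole number on a scale that no label names. For genes with mean values from 5 to 50, its dispersion index was 0.614 between ex vivo CLP 3 and 4 and 0.273 between cCLP 3 and 4, where simulated Poisson counts gave 1.01 and 1.01. Depth is therefore unknown, and count models were not used.

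Symbols and positions came from GENCODE vM21 (37693 of 39179 IDs matched). Each library was scaled by a trimmed mean of its log ratios to the others (30% of ratios and 5% of levels trimmed). Genes with a scaled value of at least 10 in as many libraries as the smaller group were fitted as log2(scaled value + 1) with limma 3.58.1 (R 4.3.3, trend, robust), two-sided, adjusted by Benjamini-Hochberg over all genes tested. A gene was called at adjusted p below 0.05. The added 1 understates the change of low genes. The fit was tested on simulated data in which genes varied independently of each other. Mitochondrial genes did not, so that test does not show how well their changes would be found. Shares were compared by exact permutation.

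The members, lists and the 6-library comparison were chosen with earlier results of these data known. All 37 members are accounted for; from the nuclear lists 9 genes were named whatever their values, with the largest called change up and down per list over the 6 libraries. Mrpl12, Tk2, Dguok, 1110008L16Rik and Ppargc1a were named after their values were seen. Python 3.11.15, pandas 2.3.3 and NumPy 2.4.6 were used.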

Additional observations from a re-analysis of the deposited data

Results flagged for a closer look

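Of 58 sets of 4 values of 1 group examined for a library far from the others, 2 had one, where chance gives about 5%. The scaled value of mt-Rnr1 in cCLP 2 was 392, against 278, 285 and 289 in the other cCLP libraries. The share of mt-Co3 in the protein gene sum of cCLP 2 was 26.3%, against 27.0% to 27.1% in the other 3.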

How the results depend on the processing

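Over the 8 libraries, the number of mitochondrial genes called was 0 in each direction under every other scaling, pseudocount, filter, gene set and limma setting and without each library, and the nuclear lists likewise had 0 calls. The 6 libraries, a choice made after seeing the data, gave 1 mitochondrial gene higher and 8 nuclear list genes higher and 6 lower, counting the 4 that passed the filter through 1 group only (5 and 5 without them). Over those 6, scaling by upper quartile or by the total gave 3 mitochondrial genes higher, and leaving out 1 library gave 0 to 2. Nuclear list genes higher were 14 without a filter and 4 to 16 with 1 library left out (16 when ex vivo CLP 1 was left out, 13 for ex vivo CLP 3, 5 for cCLP 2 and 4 for cCLP 3 or cCLP 4). Those lower were 3 when scaled by the total and 4 to 7 with 1 library left out. The cause of these shifts was not tested. The nuclear list counts under each setting include any genes that passed the filter through 1 group only. The share of all genes called under each of these settings is not given here. So neither these counts nor the mitochondrial ones can be read as particular to their genes. With 1 library of 8 left out, log2 fold changes that changed sign ranged from -0.040 to 0.49 for mt-Nd2, -0.081 to 0.19 for mt-Co2, -0.25 to 0.17 for mt-Atp8, -0.14 to 0.17 for mt-Atp6, -0.11 to 0.12 for mt-Co3, -0.15 to 0.17 for mt-Nd3, -0.13 to 0.29 for mt-Nd5 and -0.22 to 0.34 for mt-Nd6. The value for mt-Co3 was also above 0 with upper quartile scaling (0.035), total scaling (0.048) and protein-coding and mitochondrial genes only (0.0093). Over the 6 libraries the ranges were -0.17 to 0.45 for mt-Atp8, -0.081 to 0.38 for mt-Atp6 and -0.20 to 0.64 for mt-Nd6. The difference in the protein gene share was 0.188 to 1.53 percentage points with 1 library left out and 2.12 over the 6. In the composition of the 13 protein genes, 0 genes were called under any alternative.

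The libraries share only a replicate number, with no pairing shown: the correlation across genes between same-numbered libraries, after removal of group means, was 0.594, 0.842, -0.574 and -0.857 for numbers 1 to 4. With the replicate number as a block, 0 mitochondrial and 0 nuclear list genes were called in either direction, and the share difference of 0.783 percentage points had an exact sign-flip p of 0.375, where 4 pairs allow none below 0.125. Count models were not run because the values are not counts.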

Other observations

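In genome order, the 6-library log2 fold changes of the protein genes on the + strand ran 0.64 (mt-Nd1), 0.52 (mt-Nd2), 0.35 (mt-Co1), 0.26 (mt-Co2), 0.19 (mt-Atp8), 0.19 (mt-Atp6), 0.24 (mt-Co3), 0.31 (mt-Nd3), 0.43 (mt-Nd4), 0.35 (mt-Nd5) and 0.18 (mt-Cytb). Neighbouring genes differed by less than their confidence intervals, and the order was not tested.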
